A study of Mus musculus with 4 samples.

Results

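The EGF family ligands and their ERBB receptors were examined by gene symbol. The members were 9 genes, the 5 ligands *Egf*, *Btc*, *Hbegf*, *Areg* and *Nrg1* and the 4 receptors *Egfr*, *Erbb2*, *Erbb3* and *Erbb4*, of the 31053 genes in the count matrices. Single-nucleus RNA-seq, in which each RNA molecule of a nucleus carries a unique molecular identifier (UMI), was done on kidneys of 4 male mice aged 12 weeks. All 4 mice carried *Tfap2a* fl/fl, with loxP sites around exons 5 and 6 of this AP-2 transcription factor gene. The 2 controls were Cre-negative littermates, and the 2 knockout mice were *Hoxb7Cre*+;*Tfap2a* fl/fl, with 1 library per mouse. *Hoxb7Cre* recombines in the collecting ducts and the epithelia of the lower urinary tract. Recombination in single segments was not measured here. The tissue was a middle slice of the kidney with much of the cortex cut away, so cortical cell types were depleted by dissection. The labels do not say whether the mice came from several litters.

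EGF family ligands are made as membrane-bound precursors that proteases release, and they bind ERBB receptor tyrosine kinases on the same or nearby cells. EGFR binds EGF, betacellulin (*Btc*), HB-EGF and amphiregulin, ERBB4 binds neuregulins as well as betacellulin and HB-EGF, ERBB3 binds neuregulins but has little kinase activity of its own, and ERBB2 has no known ligand and serves as the partner of the others. In the kidney EGF is produced by the thick ascending limb and the distal convoluted tubule, is shed into urine, and stimulates magnesium uptake through TRPM6 in the distal convoluted tubule.

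Positions are those of the mouse build mm10 (GRCm38.p6). *Egf* (ENSMUSG00000028017) lies on chromosome 3 from 129677574 to 129755322 and *Btc* (ENSMUSG00000082361) on chromosome 5 from 91357261 to 91402994. *Areg* lies on chromosome 5 from 91139599 to 91148432 and *Nrg1* on chromosome 8 from 31807452 to 32891609. Of the receptors, *Egfr* (ENSMUSG00000020122) lies on chromosome 11 from 16752203 to 16913907, *Erbb2* on chromosome 11 from 98412484 to 98437716, and *Erbb3* on chromosome 10 from 128567523 to 128589635. *Erbb4* (ENSMUSG00000062209) lies on chromosome 1 from 68031884 to 69108576.

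Promoter sequences of the ligands *Egf* and *Btc* are shown because their RNA marked neighbouring parts of the distal nephron and because the deleted factor binds DNA. Each runs 5′ to 3′ on the minus strand from 250 bases before to 50 after the gene start in RefSeq (GRCm38.p6), at chr3:129755273-129755572 for *Egf* and chr5:91402945-91403244 for *Btc*. Capitals mark a match to either of 2 AP-2 motifs, GCCNNNGGC or GCCNNNNGGC, which read the same on both strands.
Egf: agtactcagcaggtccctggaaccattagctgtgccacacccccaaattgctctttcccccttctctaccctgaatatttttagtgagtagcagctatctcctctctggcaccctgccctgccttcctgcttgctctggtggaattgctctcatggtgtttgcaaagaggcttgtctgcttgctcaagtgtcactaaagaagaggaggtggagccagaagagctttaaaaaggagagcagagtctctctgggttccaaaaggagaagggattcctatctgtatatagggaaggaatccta
Btc: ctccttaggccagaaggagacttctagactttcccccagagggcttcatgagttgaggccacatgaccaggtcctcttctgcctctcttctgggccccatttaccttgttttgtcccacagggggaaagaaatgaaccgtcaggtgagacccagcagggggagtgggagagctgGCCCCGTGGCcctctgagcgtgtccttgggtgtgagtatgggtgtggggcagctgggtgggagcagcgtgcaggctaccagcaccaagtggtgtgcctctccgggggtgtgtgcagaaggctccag
RefSeq promoter rows matched 6 members, 7 rows in all since *Egf* has 2. Only the *Btc* promoter held a match, GCCCCGTGGC, which starts 76 bases before the gene start. The rows of *Egf*, *Areg*, *Egfr*, *Erbb2* and *Erbb4* held none of either motif. Of 32851 mouse promoters of 300 bases, 16.6% held GCCNNNGGC and 14.8% held GCCNNNNGGC, so a match of this kind is common and describes letters, not binding.

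After filtering, 27343 nuclei were kept, between 5430 and 7998 per mouse, from libraries of 22179410 to 44964099 UMIs. Clusters were named by markers, and 25441 nuclei fell into 13 classes from podocytes (Podo) to immune cells (ImC). Libraries differed in quality within each genotype, with a median mitochondrial share of 1.66% and 0.671% in controls against 1.05% and 0.417% in knockout mice, and nuclei of damaged clusters made up 3.92% and 1.12% against 7.99% and 0.405%. Each pair of libraries shared between 7 and 18 nuclear barcodes. Levels are given as CPM, the UMIs of a gene relative to all UMIs of a class on the usual CPM scale, summed over the nuclei of a class within a mouse, always in the order control 1, control 2, knockout 1, knockout 2. Barcodes under 100 UMIs gave the level of each gene in free RNA, which enters every droplet. UMIs were counted near the 3′ end of transcripts, so *Tfap2a* transcripts lacking the floxed exons still count. *Tfap2a* stood at 57.9, 102, 71.2 and 114 CPM in collecting duct principal cells (CD-PCs), which checks neither the labels nor the deletion.

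**Figure D1:**
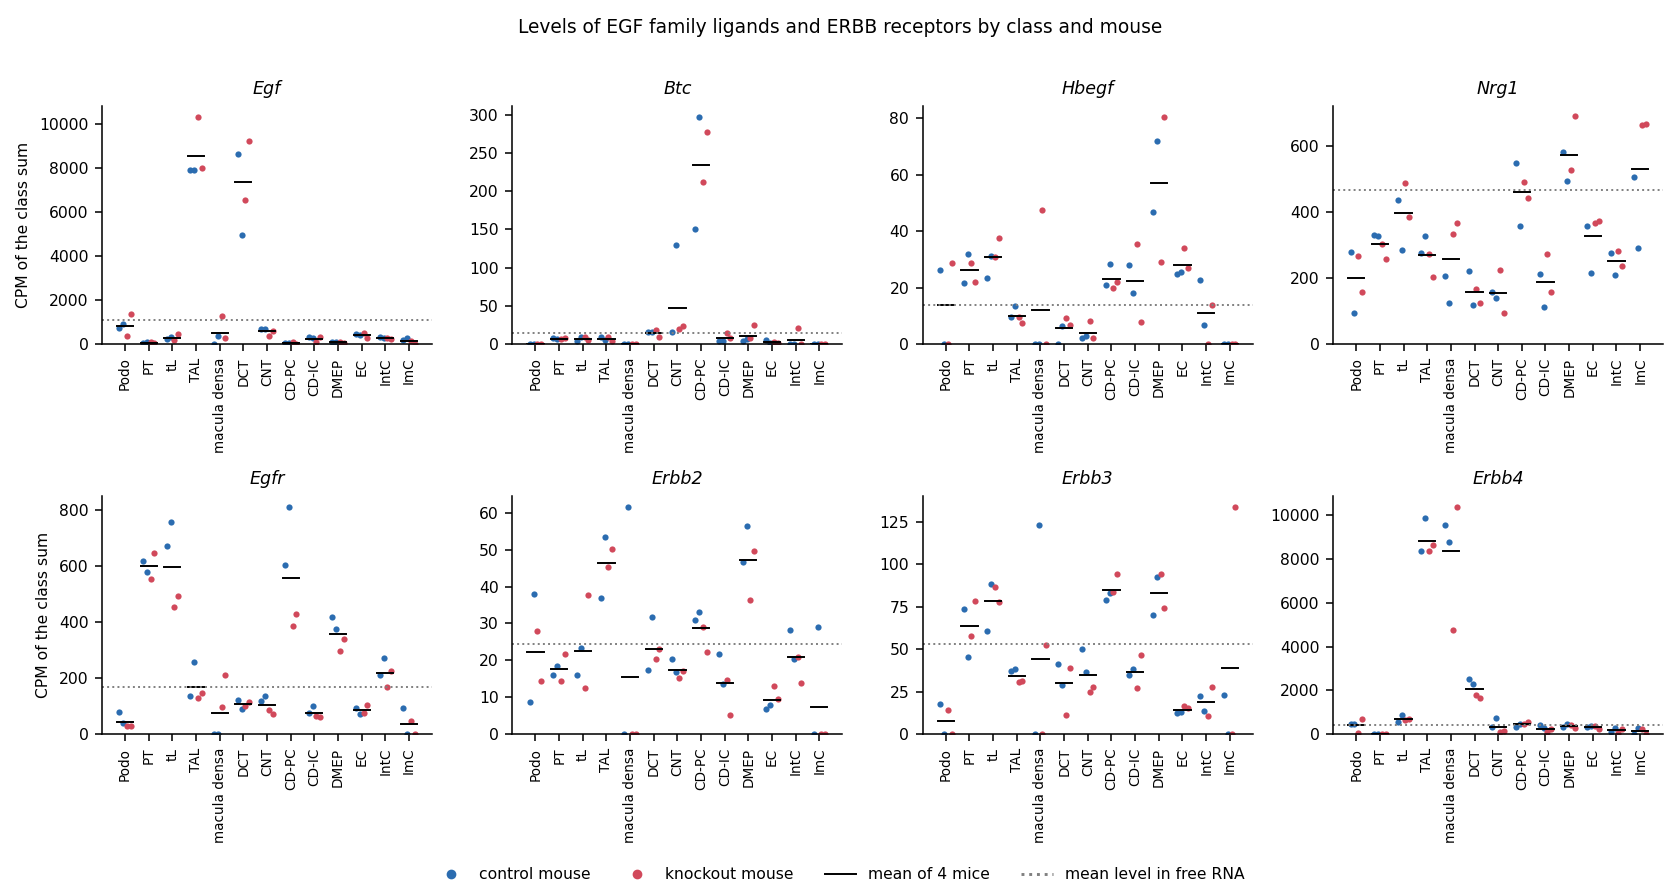
CPM of each class sum (vertical axis) for 8 members in 13 classes (horizontal axis), with 1 point per mouse (blue control, red knockout), a black line for the mean of 4 mice and a dotted line for the mean level in free RNA. Egf stands out in TAL and DCT, Btc in CD-PC and Erbb4 in TAL and macula densa, while Nrg1 lies at or below its free RNA level in most classes. Areg, with 2 UMIs in all, is not drawn.

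*Egf*, the founding ligand, was a gene of the thick ascending limb (TAL) and the distal convoluted tubule (DCT). In TAL it stood at 7909, 7924, 10331 and 8012 CPM, a mean of 8544 ± 1192 CPM (SD, n = 4 mice). In DCT it stood at 8654, 4975, 6548 and 9247 CPM, a mean of 7356 ± 1965 CPM (SD, n = 4). The ranges of these 2 classes overlapped, while that of DCT lay wholly above the next class, podocytes. TAL nuclei carried 81.8% of the 110671 *Egf* UMIs of the 13 classes and DCT nuclei 11.8%.

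Among single nuclei, 97.3% of TAL nuclei and 96.1% of DCT nuclei had an *Egf* UMI. After each nucleus was thinned to 1000 UMIs, these shares were 93.8% and 91.7%. In proximal tubule (PT), a segment that should lack *Egf*, the thinned share was 6.13%, although PT nuclei were deeper, with a median of 3184 UMIs against 1961 in TAL. *Egf* stood at 1070 CPM in free RNA, with 711, 1336, 789 and 1446 CPM in the 4 libraries. All 11 classes other than TAL and DCT had a mean below that level, from 51.6 CPM in CD-PC to 832 CPM in podocytes. Free RNA made up only a part of each class sum. From PT markers it was estimated at 12.5%, 5.48%, 15.8% and 3.44% of CNT and 37.0%, 29.9%, 41.4% and 36.2% of endothelial sums. A mean below the level in free RNA thus does not tell the source of the *Egf* UMIs, and the part of free RNA was not tested.

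Within TAL, *Egf* was not even. Cortical TAL nuclei (cTAL) had 15510, 13927, 16917 and 16776 CPM, and medullary TAL nuclei (mTAL) had 4246, 5603, 5931 and 4102 CPM. Every mouse had more in cTAL, on average 3.27-fold and between 2.49-fold and 4.09-fold. The cTAL level was also above that of DCT in 4 of 4 mice, on average 2.25-fold. Macula densa nuclei, the 34 tubular sensor cells at the end of the limb, had 0, 369, 1284 and 263 *Egf* CPM, less than TAL in 4 of 4 mice.

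*Umod*, the gene of the TAL protein uromodulin, gave a second view of free RNA, because 1 source of RNA keeps its genes in 1 ratio. *Egf* UMIs per *Umod* UMI were 1.22 in cTAL, 0.622 in mTAL, 2.29 in DCT and 0.319 in free RNA. The ratio was 0.273 in CD-PC and 0.284 in PT, near that of free RNA. It was 0.549 in endothelial cells, 0.518 in thin limbs (tL) and 1.07 in the connecting tubule (CNT), above the ratio in free RNA. In CNT the ratio was 1.29 and 0.728 in controls against 0.725 and 2.99 in knockout mice, and the 5 nuclei richest in *Egf* of each library held 308 of 541 control UMIs and 321 of 522 knockout UMIs.

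**Figure D2:**
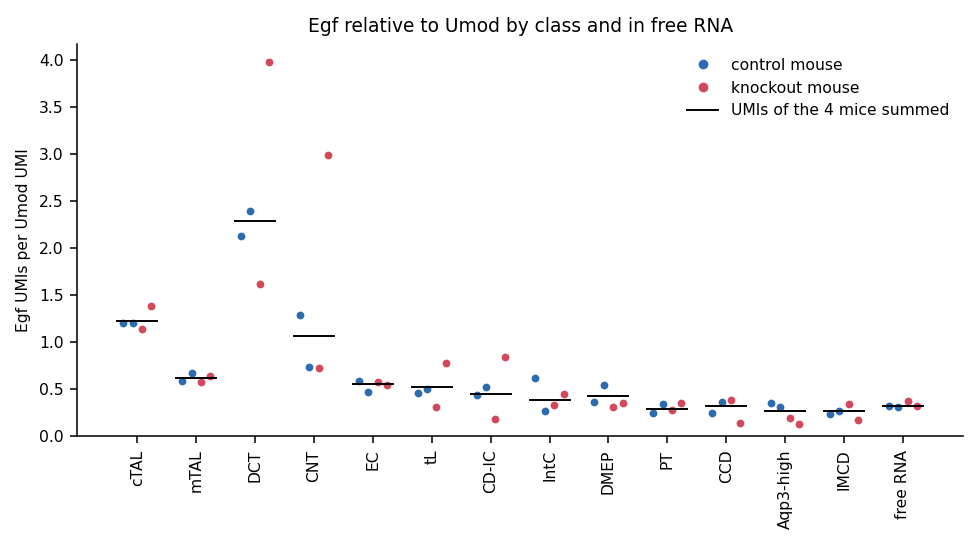
Egf UMIs per Umod UMI (vertical axis) in tubule classes, other classes and free RNA (horizontal axis), 1 point per mouse (blue control, red knockout) with a black line for the UMIs of all 4 mice summed. Of the classes drawn, the ratio is highest in DCT at 2.29 and in cTAL at 1.22, and CD-PC subclusters and PT lie near the 0.319 of free RNA.

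Podocytes had 706, 914, 350 and 1359 *Egf* CPM and a thinned share of 41.7%, the highest outside TAL and DCT. These UMIs were concentrated in few nuclei. *Egf* UMIs per *Umod* UMI were 1.59, 2.18, 0.758 and 2.61. The 5 richest nuclei of each library held 62 of 129 UMIs in the control mice and 98 of 119 in the knockout mice, and the 7 TAL markers listed summed to between 686 and 2009 CPM in podocytes. The part of TAL RNA in this level was not tested.

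*Btc*, which encodes betacellulin, marked the principal cells of the collecting duct, while intercalated cells of the duct had 7.79 CPM. CD-PCs had 151, 297, 212 and 277 CPM, a mean of 234 ± 66.2 CPM (SD, n = 4), and their range did not overlap that of the next class, CNT, with 15.9, 129, 19.4 and 23.5 CPM. CD-PC nuclei carried 66.2% of the 1629 *Btc* UMIs. In the other classes with UMIs the means lay between 2.91 CPM in endothelial cells and 14.7 CPM in DCT. Free RNA held 13.96 CPM, and no UMI was seen in podocytes, macula densa or immune cells, which allows up to 9.74, 45.5 and 18.9 CPM.

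*Btc* was uneven along the collecting duct. The subcluster with the most *Aqp3*, a basolateral water channel, is called Aqp3-high. It was the richest, with 723, 801, 508 and 730 CPM. The cortical collecting duct (CCD) subcluster had 298, 467, 310 and 616 CPM, less than Aqp3-high in 4 of 4 mice, although the ranges overlapped. The inner medullary collecting duct (IMCD) subclusters had 25.8, 20.8, 6.01 and 44.5 CPM. Aqp3-high exceeded IMCD in 4 of 4 mice, between 16.4-fold and 84.5-fold. The 313 Aqp3-high nuclei held 46.2% of all *Btc* UMIs.

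Shares of nuclei gave the same order. A *Btc* UMI was found in 73.5% of Aqp3-high nuclei (43.3% after thinning), in 41.4% of CCD nuclei (27.2% thinned) and in 8.78% of IMCD nuclei (2.52% thinned), although IMCD nuclei were the deepest, with a median of 4400.5 UMIs against 3163 in Aqp3-high and 2218 in CCD. In endothelial cells, which should lack *Btc*, the thinned share was 0.338% at a median of 1484 UMIs. PT showed a smaller gradient of its own, with 16.1 ± 2.38 CPM (SD, n = 4) in its first segment (S1) against 1.39 ± 0.97 CPM (SD, n = 4) in the third (S3), and S1 was higher in 4 of 4 mice. The S1 level was close to the 13.96 CPM of free RNA.

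**Figure D3:**
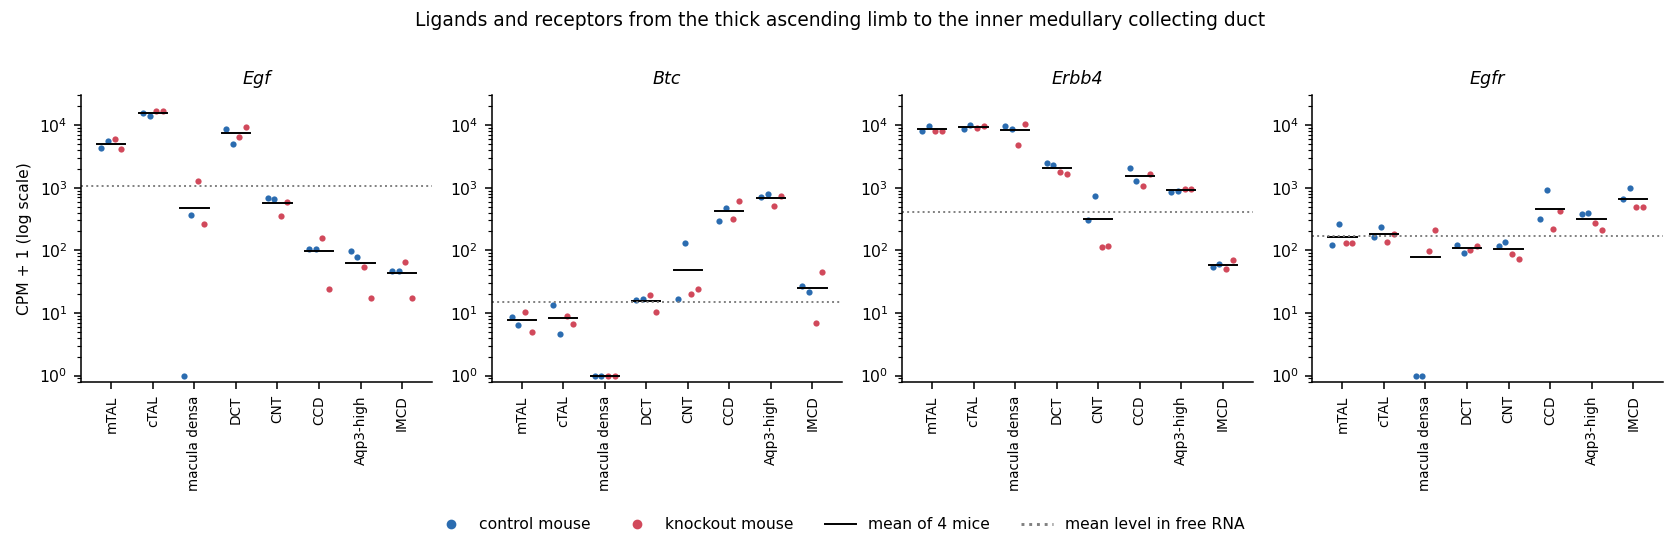
CPM plus 1 on a log axis (vertical) of Egf, Btc, Erbb4 and Egfr in 8 successive parts from mTAL to IMCD (horizontal), 1 point per mouse (blue control, red knockout), with a black line for the mean of 4 mice and a dotted line for free RNA. Egf is high in mTAL, cTAL and DCT and lower in macula densa, Btc is high in CCD and Aqp3-high, Erbb4 is lowest in IMCD with 58.1 CPM, and Egfr is highest in IMCD with 655 CPM.

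*Hbegf*, the gene of heparin-binding EGF, was low in every class. Its highest mean was in the deep medullary epithelium of the renal pelvis (DMEP), with 46.7, 72.1, 29.0 and 80.5 CPM. Thin limbs with 30.8 ± 5.90 CPM, endothelial cells with 27.9 ± 4.28 CPM and PT with 26.2 ± 5.08 CPM followed (SD, n = 4 each), and each of these ranges overlapped the next. The other classes had between 0 UMIs in immune cells and 22.9 CPM in CD-PC. Free RNA held 13.9 CPM. Within PT, S1 had 31.0 and S2 33.2 CPM against 10.3 CPM in S3, and S1 was higher than S3 in 4 of 4 mice. Among intercalated cells, which secrete acid or base, type B had 33.96 CPM and type A 10.2 CPM, with type B higher in 4 of 4 mice and folds between 1.60 and 8.89. These folds rest on few UMIs, 9, 5, 16 and 2 in type B and 4, 3, 1 and 1 in type A.

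*Areg*, the gene of amphiregulin, had 2 UMIs among all 25441 nuclei, both in DCT of knockout 1. Nothing can be compared at this depth.

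*Nrg1*, the gene of neuregulin 1, was found in every class without a clear site. The highest means were 575 ± 87.2 CPM in DMEP, 532 ± 178 CPM in immune cells and 461 ± 80.1 CPM in CD-PC, and the lowest was 154 ± 54.1 CPM in CNT (SD, n = 4 each). Free RNA held 467 ± 88.5 CPM (SD, n = 4 libraries), above the mean of all classes but DMEP and immune cells. The 3 genes whose level over 52 sums of class and mouse was most like that of *Nrg1* were the ribosomal protein genes *Rps19* (r = 0.82), *Rplp0* (r = 0.82) and *Rpl23* (r = 0.81). *Nrg1* was higher in PT-S3 than in PT-S1 in 4 of 4 mice, with 407 against 181 CPM, and higher in IMCD than in CCD in 4 of 4 mice, with 538 against 228 CPM.

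*Egfr*, the receptor for EGF, had 3 classes of nearly equal level. PT had 616, 579, 554 and 644 CPM, thin limbs 672, 757, 454 and 493 CPM, and CD-PC 601, 809, 386 and 429 CPM. Their ranges overlapped, and so did that of CD-PC with DMEP at 357 ± 50.7 CPM (SD, n = 4). DMEP was clear of the classes below it. PT nuclei, the most numerous, carried 79.1% of the 34388 *Egfr* UMIs.

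The classes richest in *Egf* were not those richest in *Egfr*. TAL had 167 ± 60.5 CPM of *Egfr* (SD, n = 4), close to the 169 CPM of free RNA, and DCT had 107 ± 14.6 CPM. In interstitial cells (IntC), which lie between the tubules, *Egfr* stood at 218 ± 42.7 CPM. The classes not yet named had between 34.4 CPM in immune cells and 103 CPM in CNT. Within CD-PCs, IMCD and Aqp3-high stood in the reverse order to that of *Btc*. IMCD had 670, 972, 483 and 494 CPM and Aqp3-high 375, 389, 276 and 211 CPM, so IMCD was higher in 4 of 4 mice, on average 2.09-fold. CCD, with 311, 906, 220 and 421 CPM, had no fixed place, since it lay below Aqp3-high in control 1 and knockout 1 and above it in the others. The thinned share of nuclei with an *Egfr* UMI was 45.4% in IMCD, 26.9% in Aqp3-high, 41.5% in PT and 4.12% in endothelial cells.

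*Erbb2*, the partner without a ligand, was highest in DMEP with 47.2 ± 8.35 CPM and TAL with 46.4 ± 7.18 CPM (SD, n = 4 each). The TAL range lay wholly above that of the third class, CD-PC, at 28.8 CPM. TAL exceeded PT in 4 of 4 mice, on average 2.66-fold. The other classes had between 7.27 CPM in immune cells and 23.1 CPM in DCT. Free RNA held 24.3 CPM. *Erbb3*, a receptor for neuregulins, was highest in CD-PC with 84.9 ± 6.62 CPM, DMEP with 82.8 ± 12.3 CPM, thin limbs with 78.4 ± 12.5 CPM and PT with 63.8 ± 15.1 CPM (SD, n = 4 each), with ranges that overlapped. The other classes had between 7.86 CPM in podocytes and 43.9 CPM in macula densa, and free RNA held 52.7 CPM.

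*Erbb4*, the receptor that binds neuregulins and betacellulin, was a gene of TAL. It stood at 8368, 9885, 8388 and 8620 CPM there, and TAL nuclei carried 89.9% of its 105919 UMIs. Macula densa had 9575, 8800, 4754 and 10373 CPM, and all 34 of its nuclei had an *Erbb4* UMI. The TAL range overlapped that of macula densa, and both lay wholly above DCT, with 2508, 2265, 1761 and 1665 CPM. Unlike *Egf*, *Erbb4* differed little between cTAL and mTAL, on average 1.11-fold.

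Thin limbs came next after TAL, macula densa and DCT, with 532, 881, 633 and 666 CPM of *Erbb4* and a thinned share of 28.2%, each above the free RNA of its own library (338, 381, 432 and 490 CPM). CD-PC followed with 446 CPM, and the other classes had means between 13.6 CPM in PT and 402 CPM in podocytes. Collecting duct nuclei were uneven in *Erbb4*. CCD had 2100, 1286, 1072 and 1676 CPM and Aqp3-high 865, 899, 942 and 965 CPM, both above the 410 CPM of free RNA in all 4 mice. IMCD had 53.7, 58.4, 50.1 and 70.3 CPM, on average 16.0-fold less than Aqp3-high and 26.6-fold less than CCD. The thinned share of nuclei with an *Erbb4* UMI was 61.8% in CCD, 53.5% in Aqp3-high and 4.56% in IMCD, beside 1.23% in PT. *Erbb4* and *Btc* were both present in the CCD and Aqp3-high subclusters, and both were low in IMCD. CNT, which lies between DCT and CCD along the tubule, had a thinned share of 8.61% for *Erbb4* and 2.5% for *Btc*.

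Likeness between the members was described over the same 52 sums, which share libraries and depth, by Pearson correlation of log2(CPM + 1). *Egf* and *Erbb4*, both genes of TAL, had r = 0.52, *Hbegf* and *Egfr* had r = 0.63, and *Btc* and *Egfr* had r = 0.50. *Btc* and *Erbb4* had r = 0.06. Of 14840 genes, those most like *Egf* were *Gm42697* (r = 0.81), *Spire1* (r = 0.80) and *Esrrb* (r = 0.78), those most like *Btc* were *Fanca* (r = 0.81), *4930550C14Rik* (r = 0.79) and *Lix1* (r = 0.78), and those most like *Erbb4* were *Slit2* (r = 0.80), *Efna5* (r = 0.79) and *Flvcr1* (r = 0.79). For *Egfr* they were *Stx6* (r = 0.84), *Aimp1* (r = 0.84) and *Erlin2* (r = 0.82), for *Erbb2* *Hddc3* (r = 0.85), *Polr2b* (r = 0.84) and *Necap2* (r = 0.83), for *Erbb3* *Mpzl3* (r = 0.79), *B4galnt3* (r = 0.76) and *Fam84b* (r = 0.76), and for *Hbegf* *Ociad2* (r = 0.79), *Slc16a11* (r = 0.78) and *Fez2* (r = 0.77).

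Whether deletion of *Tfap2a* in the collecting duct went with a change of these genes was tested by edgeR's quasi-likelihood test on UMIs summed per mouse, with Benjamini-Hochberg adjustment over all genes of a class. Of 85 pairs of a member and a class, 0 were called at an adjusted p under 0.05, where 4 of 133488 pairs over all genes were called (0.003%). DESeq2 called 1 of them, *Erbb4* in CNT. At an unadjusted p under 0.05, 5 pairs were lower and 0 higher in knockout mice, 5.88% of the 85, beside 2.96% of all pairs tested. In the 3 CD-PC subclusters 0 of 23 pairs were called by edgeR (0% of all genes) and 0 by DESeq2, and 3 were lower at an unadjusted p (2.63% of all genes). The other 32 pairs in classes and 4 in subclusters had under 10 UMIs. An exact permutation test of 2 mice against 2 has a smallest two-sided p of 0.333. In simulated data the edgeR test recovered 17% of 2-fold and 85% of 4-fold changes in CD-PC, so changes of a modest size would often be missed. The p-values set the difference between genotypes against the spread of mice within a genotype, estimated with information from all genes tested. Nothing states how the mice were drawn, so the p-values cover these 4 mice alone.

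**Figure D4:**
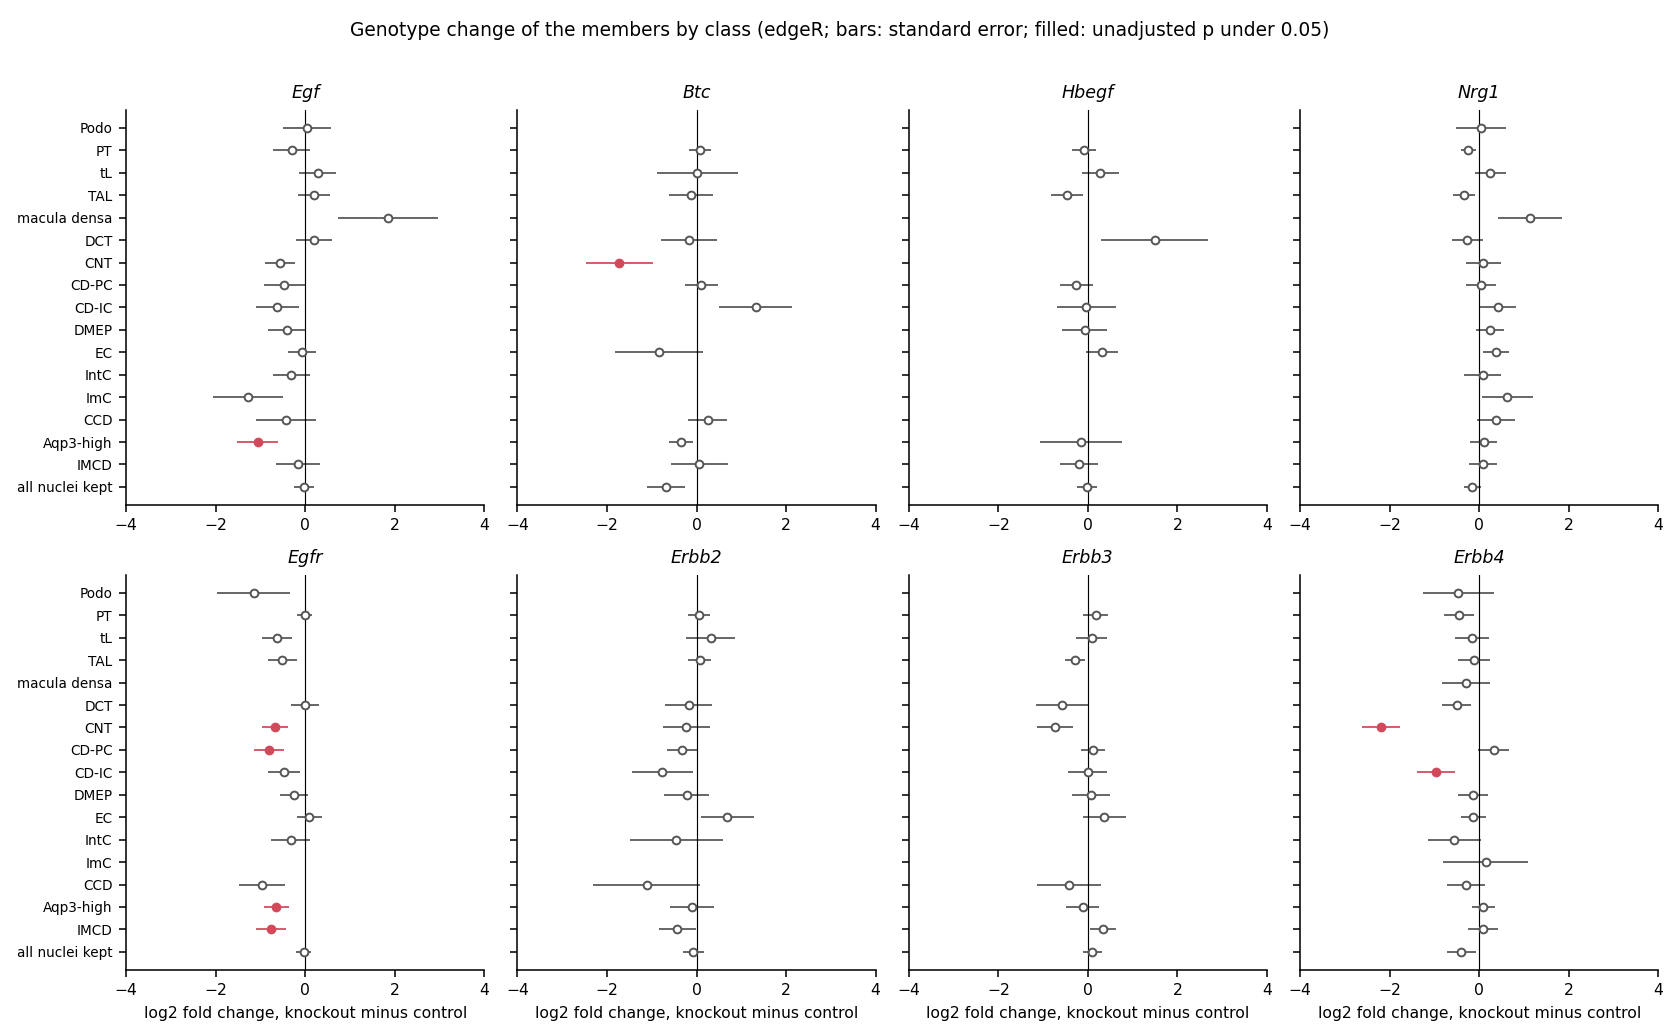
Log2 fold change of knockout minus control mice from edgeR (horizontal axis) for 8 members in each tested class, the 3 CD-PC subclusters and all nuclei kept (vertical axis), with bars for the standard error. Filled red points mark an unadjusted p under 0.05, and all 8 of them lie below 0, among them Erbb4 in CNT at -2.20.

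The largest of these values was that of *Erbb4* in CNT. It stood at 303 and 737 CPM in the control mice against 111 and 116 CPM in the knockout mice, and the groups did not overlap. The log2 fold change was -2.20 ± 0.42 (SE), with an unadjusted p of 0.000446 and an adjusted p of 0.999 by edgeR's quasi-likelihood test, where 2.03% of all genes in CNT had an unadjusted p under 0.05. Over the alternatives its log2 fold change lay between -2.80 (free RNA subtracted) and -1.34 (no integration) and its adjusted p between 3.01e-09 and 1.00. It was -2.50 with called doublets left out and -1.74 with nuclei under 1% mitochondrial UMIs. The adjusted p was under 0.05 with DESeq2 (0.0436), without the filter on low counts (1.25e-06), with the replicate number as a block, and without knockout 2 (4.41e-06) or control 1 (0.0184), and without control 2, the higher control, the fold change was -1.43. The UMIs came from few nuclei, since the 5 richest of each library held 194 of 396 control and 100 of 134 knockout UMIs. The 7 TAL markers listed, a segment with far more *Erbb4*, summed to 1740 and 2939 CPM in control CNT against 1484 and 847 CPM in knockout CNT, with 4 of 7 lower in both knockout mice and 0 of 7 at 0. Their part in the result was not tested, and all CNT levels but that of control 2 lay below the 410 CPM of free RNA.

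*Btc* and *Egfr* were also lower in CNT. *Btc* had 15.9 and 129 CPM against 19.4 and 23.5 CPM, so the groups overlapped and control 2 alone was high. The 9 CD-PC markers in CNT summed to 2910 and 4043 CPM against 3559 and 2486 CPM, also highest in control 2, with 1 of 9 lower in both knockout mice and 0 of 9 at 0. Their part in the result was not tested. The log2 fold change of *Btc*, -1.72 (unadjusted p = 0.0471, adjusted p = 0.999 by edgeR), turned to 0.40 without control 2, and reached an adjusted p of 0.0373 without control 1, the lowest over the alternatives, the highest being 1.00. The 5 richest nuclei of each library held 41 of 53 control and 14 of 25 knockout UMIs. *Egfr* in CNT had 116 and 137 CPM against 85.9 and 72.7 CPM, a log2 fold change of -0.67 ± 0.30 (SE, unadjusted p = 0.0485, adjusted p = 0.999 by edgeR), with no overlap of the groups. With clusters made without integration it was -0.02. All 4 levels lay below the 169 CPM mean of *Egfr* in free RNA.

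In CD-PCs, a collecting duct class and so a site of *Hoxb7Cre* activity, *Egfr* had the largest shift of the members. It stood at 601 and 809 CPM in the control mice against 386 and 429 CPM in the knockout mice, and both knockout mice lay below both controls. The log2 fold change was -0.80 ± 0.34 (SE), with an unadjusted p of 0.0396 and an adjusted p of 0.9997 by edgeR, where 2.24% of all CD-PC genes had an unadjusted p under 0.05. The UMIs were spread over many nuclei, with 138 of 2133 control UMIs and 73 of 638 knockout UMIs in the 5 richest of each library. The direction was the same in each subcluster. In Aqp3-high the levels of 375 and 389 against 276 and 211 CPM gave -0.64 ± 0.27 (SE, unadjusted p = 0.0337, adjusted p = 0.9997 by edgeR), beside 3.95% of all Aqp3-high genes. In IMCD, 670 and 972 against 483 and 494 CPM gave -0.76 ± 0.34 (SE, unadjusted p = 0.0447, adjusted p = 0.9999 by edgeR), and -0.42 without control 2. In CCD, 311 and 906 against 220 and 421 CPM overlapped between genotypes. These values share nuclei with CD-PC as a whole and are not separate evidence. In TAL and PT, *Egfr* had 134 and 257 against 130 and 146 CPM and 616 and 579 against 554 and 644 CPM. In thin limbs (levels above), DMEP and CD-IC both knockout mice also lay below both controls, as in CNT and, with 15 UMIs, in podocytes. In TAL, PT, DCT, endothelial and interstitial cells the groups overlapped.

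The other members in CD-PC did not pass even an unadjusted p under 0.05. *Btc*, whose site is this class, had a log2 fold change of 0.11 ± 0.36 (SE), and in Aqp3-high -0.35 ± 0.28 (SE). *Erbb4* had 0.32 ± 0.34 in CD-PC and 0.09 ± 0.26 in Aqp3-high, and *Erbb3* had 0.13 ± 0.27 and -0.12 ± 0.38. *Nrg1* stood at 0.04 ± 0.34 and 0.10 ± 0.30, *Erbb2* at -0.33 ± 0.34 and -0.10 ± 0.48, and *Hbegf* at -0.26 ± 0.37 and -0.15 ± 0.91 (SE throughout). Intervals this wide do not show that the genotypes were alike.

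*Egf* in CD-PC was low and depended on which nuclei were counted. In the CD-PC nuclei kept it had 57.1 and 63.9 CPM against 67.9 and 17.7 CPM, a log2 fold change of -0.46 ± 0.47 (SE, unadjusted p = 0.345, adjusted p = 0.9997 by edgeR). It was -1.78 without knockout 1 and 0.15 without knockout 2. In 98 further CD-PC nuclei with markers of another segment, of which 79.6% were called doublets, *Egf* stood at 1217 and 1828 CPM against 471 and 624 CPM, and *Slc12a1*, the TAL sodium transporter, at 2413 and 3038 CPM against 665 and 857 CPM. With these nuclei kept in the sum, the log2 fold change of *Egf* became -1.11 (unadjusted p = 0.0033, adjusted p = 0.9999 by edgeR). In Aqp3-high *Egf* had 97.9 and 76.6 CPM against 52.7 and 16.2 CPM, without overlap, a log2 fold change of -1.06 ± 0.46 (SE, unadjusted p = 0.0366, adjusted p = 0.9997 by edgeR). It was -2.36 without knockout 1 and -0.70 without knockout 2. With free RNA subtracted it was -5.76 (unadjusted p = 0.0027, adjusted p = 0.807 by edgeR), and DESeq2 gave -1.21 (unadjusted p = 0.128). The *Egf* values of Aqp3-high rest on 72 UMIs, and all 4 levels lay under the 711 to 1446 CPM of free RNA in the libraries.

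*Erbb4* was also lower in the intercalated cells (CD-IC), another collecting duct class. It had 406 and 253 CPM against 106 and 233 CPM, a log2 fold change of -0.97 ± 0.43 (SE, unadjusted p = 0.0468, adjusted p = 0.999 by edgeR). The groups did not overlap, but control 2 and knockout 2 were close. Without control 1 the log2 fold change was -0.59, without knockout 1 it was -0.50, without knockout 2 it was -1.65, and with nuclei under 1% mitochondrial UMIs it was -2.08. With free RNA subtracted it was -1.44 (unadjusted p = 0.0808 by edgeR). With the replicate number as a block the adjusted p was 0.00952, the lowest over the alternatives, the highest being 1.00. The 5 richest nuclei of each library held 173 of 300 control and 82 of 141 knockout UMIs, and the TAL markers summed to 1753 and 1227 CPM against 1057 and 955 CPM, with 1 of 7 lower in both knockout mice and 0 of 7 at 0. The 9 CD-PC markers summed to 666 and 649 CPM against 1144 and 755 CPM in these nuclei, with 4 of 9 higher in both knockout mice. The part of either in the result was not tested. All 4 *Erbb4* levels lay below the 410 CPM mean of free RNA, but that of control 1 lay above the free RNA of its own library.

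In the classes with the highest level of each member, the genotypes did not differ by an unadjusted p under 0.05. *Egf* in TAL had a log2 fold change of 0.20 ± 0.36 and *Erbb4* in TAL -0.11 ± 0.35. *Egfr* in PT had -0.01 ± 0.16. In DMEP, *Hbegf* had -0.07 ± 0.50, *Nrg1* 0.24 ± 0.32 and *Erbb2* -0.22 ± 0.51 (SE throughout, edgeR). Over all nuclei of the named classes, where fewer cells of a type and less RNA per cell cannot be told apart, 0 of 8 members were called by edgeR (0% of all genes) and 0 passed an unadjusted p, beside 5.2% of all genes. DESeq2 called 0 of the 8. The number of nuclei per class differed between mice. CD-PC had 306 and 457 nuclei in control against 246 and 193 in knockout mice, and DMEP 66 and 94 against 33 and 31. CNT went the other way, with 164 and 112 against 276 and 178. The part of these numbers in the changes over all nuclei was not tested. The log2 fold changes over all nuclei were -0.03 for *Egf*, -0.68 for *Btc*, -0.01 for *Hbegf*, -0.15 for *Nrg1*, -0.03 for *Egfr*, -0.07 for *Erbb2*, 0.10 for *Erbb3* and -0.40 for *Erbb4*. Without control 2 that of *Btc* was 0.12 and that of *Erbb4* 0.01, and without control 1 they were -1.22 and -0.74. Without knockout 1 that of *Erbb4* was -0.17, and without knockout 2 it was -0.68.

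Whether a change differed between CD-PC and TAL was tested as an interaction with the mouse as a term. By edgeR 0 of 8 members were called, beside 0.0502% of all genes, 0 passed an unadjusted p (4.24% of all genes), and DESeq2 called 0. *Egf* came nearest, with a difference of -0.80 ± 0.44 on the log2 scale (SE, unadjusted p = 0.0694). Over 14 alternatives this *Egf* difference lay between -5.58 (free RNA subtracted) and -0.25 (without knockout 2), 6 passed an unadjusted p under 0.05, and the adjusted p lay between 0.0538 and 1.00. The lowest adjusted p came with the mixed CD-PC nuclei kept. The *Egf* levels of CD-PC in this test lay below that of free RNA. The difference for *Egfr* was -0.35 ± 0.30 (SE, unadjusted p = 0.236), so a lower *Egfr* in CD-PC was not shown to be particular to that class. Over the 85 pairs the median log2 fold change was -0.12, where it was 0.002 over all genes tested.

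The pathway around the members was followed in 55 further genes, 6 other ligands, 4 sheddase genes, 7 adaptors, 10 genes of the MAPK chain, 6 of the PI3K chain, 13 feedback inhibitors and 9 targets and effectors. Of 520 pairs of these genes and classes tested by edgeR, 0 were called, 3 were higher and 11 lower at an unadjusted p under 0.05, which is 2.69% beside 2.96% of all pairs. The smallest of these p-values was that of *Pik3r1*, a regulatory subunit of PI3K, in TAL, at 306 and 423 CPM against 204 and 167 CPM (log2 fold change -0.99 ± 0.25, SE, unadjusted p = 0.0051, adjusted p = 0.9998 by edgeR). In the difference test of CD-PC and TAL, 3 of 51 listed genes passed an unadjusted p, beside 4.24% of all genes, and *Pik3r1* had 1.11 ± 0.31 (SE, unadjusted p = 0.00028, adjusted p = 0.166 by edgeR). *Tgfa*, a further ligand of EGFR, was highest in DMEP with 99.4 CPM and podocytes with 92.4 CPM, beside 41.5 CPM in CD-PC. In CD-PC it was the only listed gene with an unadjusted p under 0.05, at 41.1 and 63.9 CPM in the control mice against 25.6 and 35.4 CPM in the knockout mice (log2 fold change -0.82 ± 0.35, SE, unadjusted p = 0.0421, adjusted p = 0.9997 by edgeR).

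Of the remaining ligands, *Nrg4* was highest in PT with 16.9 CPM and *Nrg2* in interstitial cells with 30.2 CPM, while *Ereg* had 3 UMIs and *Epgn* 4. *Adam10*, a sheddase, was highest in DMEP with 251 CPM, and *Adam17*, the main sheddase of several EGFR ligands, in immune cells with 143 CPM. *Errfi1*, an inhibitor induced by EGFR activity, was highest in PT with 1474 CPM, followed by interstitial cells with 1097 CPM. It stood at 50.7 CPM in CD-PC, whose *Egfr* mean of 556 CPM was near the 598 CPM of PT. *Trpm6*, the magnesium channel that EGF stimulates, was highest in DCT with 2680 CPM. Over all nuclei kept, 53 of the 55 genes were tested and 0 called. At an unadjusted p under 0.05, passed by 4 of 53 beside 5.2% of all genes, *Egr1*, *Fos* and *Tgfa* were lower (log2 fold changes -1.59, -1.35 and -1.25) and *Trpm6* was higher (0.48), each with an adjusted p of 0.926 by edgeR.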

How the data were processed

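Nuclei of 4 mouse kidneys were profiled with the 10x Chromium 3′ kit. The authors made the deposited counts with Cell Ranger 3.0.2 and the genome build mm10. Each library is a matrix of raw UMI counts with 31053 genes and 6794880 barcodes, including empty droplets, and each sample was assigned to its genotype by the labels.

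Of the 10000 barcodes with most UMIs per library, a barcode was kept if it held more than 500 genes, fewer than 4000, and under 5% mitochondrial UMIs. They were integrated and clustered with Seurat 5.3.0 in R 4.3.3 (2000 variable genes, 30 dimensions, resolution 0.5), and CD-PC nuclei again with 5 neighbors and a resolution of 0.2. A cluster was named from at least 4 listed markers, each in at least 5% of its nuclei and at least 2-fold above the median cluster. Damaged clusters (1028 nuclei), clusters with over 50% of called doublets (484), dividing (118) and unnamed (174) nuclei and 98 mixed CD-PC nuclei went into no class. Doublets were called against simulated ones, in 4.35% to 6.40% of a library.

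UMIs were summed per mouse and class. A gene needed 10 UMIs in total to enter the test, by edgeR 4.0.16 (TMM normalization, quasi-likelihood test on genotype) with Benjamini-Hochberg adjustment, and an adjusted p under 0.05 was called. Library depth was 22179410 to 44964099 UMIs, and errors are SDs over mice or standard errors of the fit. For shares of nuclei, 1208 nuclei with fewer than 1000 UMIs were left out before thinning. The fits were tested on simulated data, in which 4-fold changes were recovered in 80% to 97% of genes and 2-fold changes in 8% to 23% in 6 fits.

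Every member is described by its level over the classes. Fold changes are printed for pairs with an adjusted or unadjusted p under 0.05, in the class with the highest level, in CD-PC and Aqp3-high, and over all nuclei. Pathway genes outside the members are printed by the same p in CD-PC, Aqp3-high and all nuclei, except for 1 result that is not reported here. *Pik3r1*, with the smallest p elsewhere, was chosen after its values were seen. The members, the lists and the limits were chosen with earlier results of these data known. Alternatives were DESeq2 1.42.0, no TMM, no filter on low counts, edgeR's filterByExpr, a replicate block, called doublets left out, free RNA subtracted, under 1% mitochondrial UMIs, a resolution of 0.8 (0.4 for CD-PC), no integration, each mouse left out and, chosen after the data were seen, mixed CD-PC nuclei kept.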

Additional observations from a re-analysis of the deposited data

How the results depend on the processing

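The number of member and class pairs called was 0 by edgeR, 1 with DESeq2, 1 with no filter on low counts, 2 with the replicate block, and between 0 and 2 with 1 mouse left out. These were *Erbb4* in CNT in each of those settings that made a call, joined by *Erbb4* in CD-IC under the block, by *Btc* in CNT without control 1 (2 calls) and by *Erbb4* in Podo without knockout 2 (2 calls), where the log2 fold change was -3.99. A lone mouse of a genotype is then assumed to vary like the other genotype. The other settings gave 0 calls in classes, and the settings run gave 0 in subclusters, over all nuclei and in the difference test. Higher resolution and no integration were not run over all nuclei, nor the block in the difference test. The log2 fold change of *Btc* in CNT was between -2.58 (without control 1) and 0.40 (without control 2, where it reversed). Some of the alternative values counted next repeat the reported fit and could not differ from it. Among the 8 pairs, keeping mixed CD-PC nuclei changed *Egfr* in CD-PC alone. The higher resolution left the pairs in CNT and CD-IC and *Egfr* in CD-PC as they were. Of the 8 pairs with an unadjusted p under 0.05, 83 of 120 alternative values kept it and 1 changed sign. Of 35 other pairs, 39 of 498 values changed sign and 12 passed. The pairing was checked by the deviations of same-numbered mice from their group means, which correlated with r = 0.389 over 14840 genes, but with 2 pairs and no label of a shared litter this does not show that the numbers pair the mice. With the replicate block the calls over all genes moved from 0 to 4 higher and 13 lower in CNT, to 20 higher and 25 lower in CD-IC, to 39 higher and 17 lower in CD-PC and to 29 higher and 17 lower in Aqp3-high. DESeq2 called 0 genes higher and 2 lower in CNT. With no filter on low counts CD-PC gave 19 higher and 6 lower, and CNT, at 0 in the reported fit, 6 higher and 16 lower. The difference test called 6 genes higher and 2 lower by edgeR and 0 by DESeq2. Over all nuclei, edgeR called 0 genes and DESeq2 17 higher and 27 lower. Of the 8 members other than *Areg*, 5 kept their highest class when only the control mice were averaged, and 5 kept the class with the highest share when nuclei were not thinned. Depth limits *Areg*, with 2 UMIs, and macula densa, with 34 nuclei. Mean levels of *Egf* in each class outside TAL and DCT, of *Erbb4* in CD-IC and of *Egfr* in CNT lay under the mean of free RNA alone. *Egf* in macula densa of knockout 1 and *Erbb4* in CD-IC of control 1 lay above the free RNA of their own libraries. Free RNA was estimated at 5.80% to 18.7% of the CD-IC sums and 3.44% to 15.8% of the CNT sums. Its part in these levels was not tested.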

Other observations

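A cluster of 174 nuclei that got no name, with 3 of 8 DMEP markers where 4 were needed, had *Erbb4* at 2002, 2470, 1997 and 1797 CPM, in the order control 1, control 2, knockout 1, knockout 2. An *Erbb4* UMI was found in 92.5% of its nuclei, and in 81.9% after thinning. Its leading genes were *Psca*, *Lypd2* and *Akr1b3*, and 107 of its nuclei came from control 2. It had 157 CPM of *Egf* and 3.48 CPM of *Btc*.

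The 118 dividing nuclei, also in no class, had 710, 1967, 737 and 908 CPM of *Nrg1*, each above the highest value in any class, 693 CPM in DMEP. Free RNA held 467 CPM. From the level of PT markers it was estimated to make up 51.4%, 97.4%, 66.8% and 82.0% of the UMIs of these nuclei. This estimate counts any PT RNA made by the nuclei themselves as free RNA. *Slc13a1*, a leading gene of a PT cluster, was also a leading gene of these nuclei, so the estimate cannot be relied on here.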
